A study of Arabidopsis thaliana with 27 samples.

Results

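Genes that build or regulate the Casparian strip were followed across all groups of an RNA-seq study of UV-B exposure in etiolated Arabidopsis thaliana hypocotyls. They were taken by locus from a table of raw counts for 32832 loci, and number 8, among them the transcription factor gene MYB36 (AT5G57620), the Casparian strip membrane domain protein genes CASP1 (AT2G36100), CASP2 (AT3G11550), CASP4 (AT5G06200) and CASP5 (AT5G15290), the peroxidase gene PER64 (AT5G42180) and the dirigent protein gene ESB1 (AT2G28670). The genotypes were xpf-3, which carries a mutation in the nucleotide excision repair endonuclease gene UVH1, uvr8-6, which carries one in UVR8, whose product senses UV-B, and wild type Columbia-0 (WT). Each was kept in the dark or given 3000 µmol m-2 of UV-B (the low dose, about 5 min) or 30000 µmol m-2 (the high dose, about 45 min), with 3 libraries in each of the 9 groups. All seeds lay on medium with 100 µM gibberellin A4 in the dark for 2.5 days before exposure and went back to the dark after it. Hypocotyls were excised 6 h after exposure according to the extraction protocol, whereas the series title speaks of 2 days.

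The Casparian strip is a ring of lignin in the wall of endodermal cells that seals the space between them, so that solutes have to pass through a cell to reach the vascular tissue. In roots the R2R3-type transcription factor MYB36 switches on the CASP genes, ESB1 and PER64. The CASP proteins mark a belt of the plasma membrane and gather PER64 and ESB1 there, which carry out and place lignin polymerisation. An etiolated hypocotyl also has an endodermis, and because it was sequenced in bulk, fewer endodermal cells and less RNA per cell cannot be told apart.

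Total counts per library were between 4508097 and 11045334 in xpf-3, between 12488317 and 15342281 in uvr8-6 and between 6163441 and 11984665 in WT. The notes deposited with the tables place WT and xpf-3 in an earlier run and uvr8-6 in a later one, so run and uvr8-6 genotype cannot be told apart. UVR8 was at 3.50 ± 0.94 CPM (counts scaled to a fixed library total) in dark uvr8-6, against 70.6 ± 0.999 CPM in dark WT (SD, n = 3 each). UVH1 was higher, not lower, in the libraries labelled xpf-3, at 46.5 ± 6.2 CPM in dark xpf-3 against 19.2 ± 0.20 CPM in dark WT (SD, n = 3 each), and the position of the xpf-3 lesion is not given in the sources used here, so the count does not check the loss of function. Nothing in the labels says that the 3 libraries of a group came from separate cultures, so the tests measure the spread between these libraries, which may be technical.

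Promoter windows of the 8 genes, 250 bases before to 50 after the gene start in RefSeq TAIR10.1, were read on the strand of each gene because the members moved together in the counts. The build behind the counts is not given in the sources used here. CASP2 and CASP4 shared a block of 35 bases with 33 identical positions, shown here with identical bases in capitals. In CASP2 it lay at positions -172 to -138 from the start, and in CASP4 at positions -13 to 22.
CASP2: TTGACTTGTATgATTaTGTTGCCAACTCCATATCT
CASP4: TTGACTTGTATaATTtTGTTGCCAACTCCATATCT
The 19 identical bases at its end were taken from the windows of CASP2 and CASP4, so these 2 hold them by construction. No other of the 27443 promoter windows of protein-coding genes held them on either strand. This count does not test whether the block is specific to the 2 genes. No other pair of members shared a run of more than 10 bases in these windows. The block was singled out after the windows had been compared.

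AC elements are bound by R2R3 MYB factors in lignin genes. Both strands were searched for ACCNACC and ACCNAAC, looser strings that take in AC elements. N stands for any base, so a match need not be an AC element. ACCNACC was found in 0 of the 8 members and in 7.4% of all 27443 windows. ACCNAAC was found in 4 of the 8, CASP5, ESB1 and PER64 among them, and in 17.2% of all windows. Copies of the 2 forms cannot start at the same base. The matches in CASP5 and PER64 are shown with their flanks, the matched letters in capitals. The upstream one of CASP5 (first letter at -191) reads as ACCNAAC on the other strand, and those at 31 in CASP5 and at 6 in PER64 on the gene strand.
CASP5, upstream: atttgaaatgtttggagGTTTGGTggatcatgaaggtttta
CASP5, after the start: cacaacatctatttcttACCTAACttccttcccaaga
PER64: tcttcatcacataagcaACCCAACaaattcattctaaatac
CACGTG, the core of the G-box, was in 0 of the 8 members and 7.7% of all windows. Between exons of different members the longest identical run was 20 bases, shared by CASP2 and CASP4.

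Of the 8 genes, 7 could be tested, and UV-B lowered all 7 at either dose in xpf-3 and WT. The share of all tested genes that was lower was 33.9% in xpf-3 and 12.7% in WT after the low dose, and 35.5% in xpf-3 and 31.5% in WT after the high dose. In uvr8-6 the low dose lowered 1, CASP5, beside 2.88% of all tested genes, and the high dose lowered all 7, beside 25.4% of them. Levels are given as CPM with totals scaled by the trimmed mean of M-values (TMM). Changes are log2 fold changes ± SE from edgeR's quasi-likelihood test with Benjamini-Hochberg adjustment over 19794 tested genes, called at an adjusted p below 0.05.

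MYB36, the regulator of the group, was measured at 40.5, 37.3 and 36.6 CPM in dark xpf-3, 7.21, 8.04 and 6.61 CPM after the low dose and 4.73, 5.04 and 4.01 CPM after the high dose. In uvr8-6 it was at 13.7, 11.6 and 27.5 CPM in the dark, 17.2, 11.02 and 9.68 CPM after the low dose and 3.67, 2.77 and 2.27 CPM after the high dose. WT libraries held 34.3, 45.0 and 39.1 CPM in the dark, 16.5, 14.7 and 19.3 CPM after the low dose and 7.21, 7.75 and 5.55 CPM after the high dose. The 3 doses of WT did not overlap with each other, and neither did those of xpf-3, in which the low-dose libraries already lay near the high-dose WT libraries. In uvr8-6 the dark and low-dose libraries overlapped. Dark uvr8-6 library 3 stood above the other 2 for this gene and for the 6 others tested.

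CASP5, the membrane domain protein gene with the highest level per exon length, was at 602, 656 and 588 CPM in dark xpf-3, 23.2, 39.6 and 39.6 CPM after the low dose and 18.0, 65.7 and 22.5 CPM after the high dose. For uvr8-6 the values were 150, 92.7 and 349 CPM in the dark, 73.3, 39.7 and 56.6 CPM after the low dose and 4.38, 6.23 and 3.05 CPM after the high dose. WT had 436, 580 and 506 CPM in the dark, 58.2, 44.5 and 64.7 CPM after the low dose and 24.3, 19.2 and 33.5 CPM after the high dose. CASP5 was the only member whose dark and low-dose libraries did not overlap in uvr8-6, and the share of all tested genes without such overlap is not given here. High-dose uvr8-6 libraries lay below every other library for this gene.

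CASP1 stood at 152, 252 and 221 CPM in dark xpf-3, 16.6, 32.7 and 15.2 CPM after the low dose and 19.9, 38.6 and 11.6 CPM after the high dose. Its uvr8-6 values were 73.4, 84.6 and 129 CPM in the dark, 85.0, 97.2 and 56.8 CPM after the low dose and 7.55, 15.5 and 4.19 CPM after the high dose. In WT it was at 166, 239 and 176 CPM in the dark, 39.5, 29.2 and 24.3 CPM after the low dose and 6.18, 11.95 and 13.6 CPM after the high dose. Low-dose uvr8-6 libraries all lay above the low-dose WT libraries, although the dark uvr8-6 libraries all lay below the dark WT ones.

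CASP2 was at 75.3, 120 and 101 CPM in dark xpf-3, 6.25, 9.75 and 5.42 CPM after the low dose and 5.20, 11.4 and 3.44 CPM after the high dose. In uvr8-6 it was measured at 33.9, 38.4 and 64.4 CPM in the dark, 39.8, 45.7 and 27.7 CPM after the low dose and 1.98, 4.16 and 0.898 CPM after the high dose. WT gave 80.0, 121 and 87.0 CPM in the dark, 18.3, 10.8 and 13.0 CPM after the low dose and 1.55, 3.88 and 3.70 CPM after the high dose. Again the low-dose libraries of uvr8-6 lay above and its dark libraries below those of WT, and here the low-dose xpf-3 libraries lay below the low-dose WT ones.

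CASP4, the lowest of the 5 CASP genes per exon length, was at 43.3, 59.5 and 56.7 CPM in dark xpf-3, 3.92, 9.26 and 5.23 CPM after the low dose and 3.31, 6.39 and 1.43 CPM after the high dose. Its levels in uvr8-6 were 12.7, 12.1 and 26.5 CPM in the dark, 11.9, 15.1 and 5.91 CPM after the low dose and 1.27, 1.77 and 0.479 CPM after the high dose. Its levels in WT were 43.4, 67.2 and 38.7 CPM in the dark, 6.97, 4.94 and 4.03 CPM after the low dose and 0.901, 1.94 and 2.43 CPM after the high dose. Low-dose uvr8-6 and low-dose WT libraries overlapped for CASP4, unlike CASP1 and CASP2.

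PER64, the peroxidase of the strip, was at 167, 222 and 210 CPM in dark xpf-3, 15.7, 30.2 and 15.6 CPM after the low dose and 14.9, 31.6 and 11.5 CPM after the high dose. The uvr8-6 libraries held 63.5, 67.4 and 116 CPM in the dark, 68.3, 73.9 and 42.7 CPM after the low dose and 7.06, 11.8 and 3.35 CPM after the high dose. The WT libraries held 147, 223 and 161 CPM in the dark, 31.3, 21.1 and 22.2 CPM after the low dose and 6.95, 10.7 and 14.3 CPM after the high dose. Dark and UV-B libraries were apart in xpf-3 and in WT, and low-dose uvr8-6 libraries lay above those of WT, as for CASP1 and CASP2.

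ESB1 was at most 7 counts, or 0.619 CPM, in any library, with 72 counts over all 27 libraries and 2 libraries at 0, and it failed the low-count filter. Its counts in the dark were 0, 5 and 3 in xpf-3, 3, 1 and 3 in uvr8-6 and 1, 3 and 7 in WT, and no change could be tested. In RefSeq 84.3% of its 1731 exon bases, 1459 bases, are also covered by AT2G28671 on the opposite strand, and that locus had at most 3 counts in a library. How reads over both loci were counted is not given in the sources used here, so the count of ESB1 may not stand for its RNA, and that was not tested. Counting overlap elsewhere was small, with 5.4% of the exon bases of CASP1, 2.8% of those of PER64 and 0.4% of those of CASP5 shared with a gene on the other strand.

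**Figure D1:**
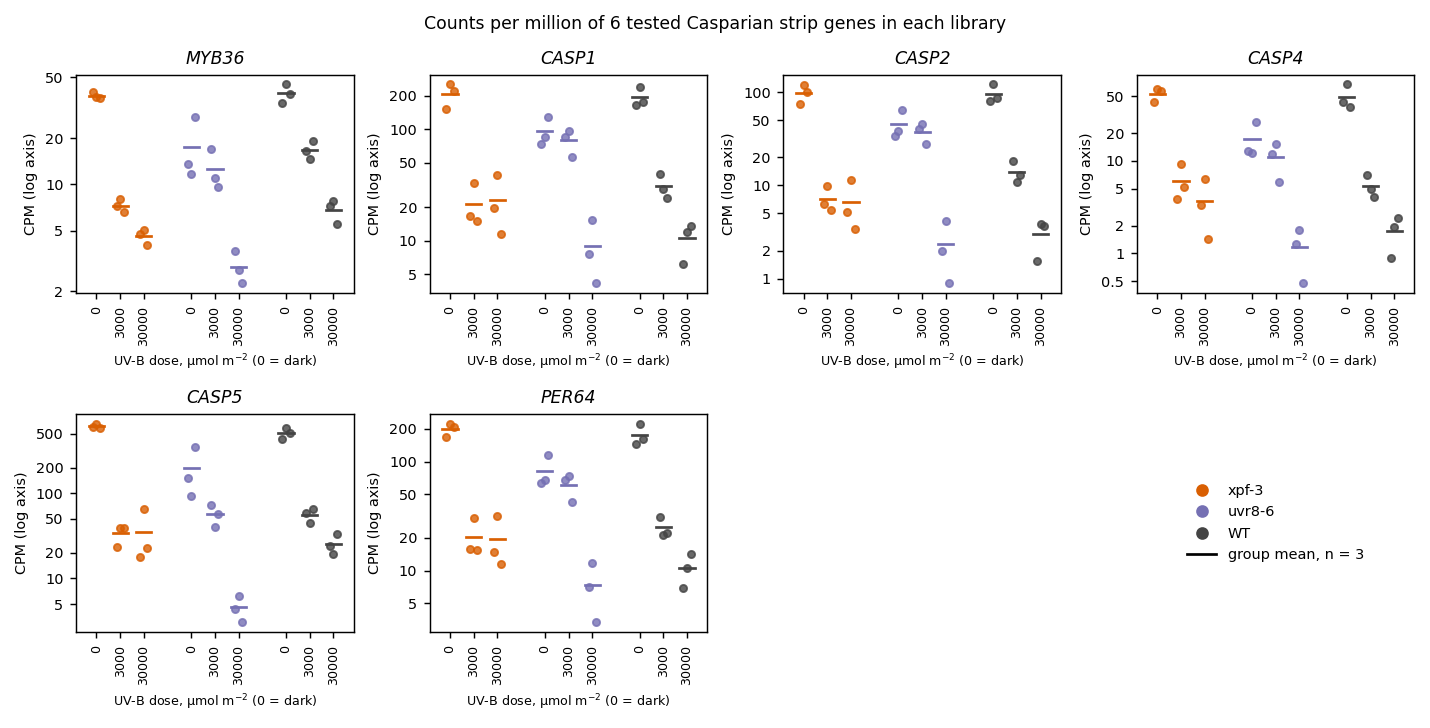
Level of 6 of the 7 tested genes in every library, in CPM on a log axis, by UV-B dose (0 is dark) within xpf-3, uvr8-6 and WT; points are libraries and bars are means of 3. Low-dose points sit near the high-dose points in xpf-3 and, except for CASP5, near the dark points in uvr8-6, and WT steps down at each dose.

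Per kilobase of exon, so that genes can be compared, the mean dark level was 689 CPM per kb for CASP5 in xpf-3, 221 in uvr8-6 and 568 in WT. CASP1 followed with 230 CPM per kb in dark xpf-3, 106 in dark uvr8-6 and 214 in dark WT. PER64 came next, with 162 CPM per kb in dark xpf-3, 66.9 in dark uvr8-6 and 144 in dark WT. MYB36 was the lowest of the 7, at 27.6, 12.7 and 28.5 CPM per kb in dark xpf-3, dark uvr8-6 and dark WT.

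Ordered by group mean, CASP1, CASP2, CASP4 and PER64 had the same 4 groups at the top, which were dark xpf-3, dark WT, dark uvr8-6 and low-dose uvr8-6, and high-dose uvr8-6 at the bottom. Neighbours in that order whose libraries did not overlap numbered 4 of 8 pairs for CASP5 and MYB36, 3 for CASP1 and CASP2, 2 for PER64 and 1 for CASP4. Dark xpf-3 and dark WT overlapped for every member but CASP5, and dark uvr8-6 and low-dose uvr8-6 overlapped for every member but CASP5. CASP5 did not pass between dark xpf-3 and dark WT (edgeR adjusted p = 0.773). How many of all tested genes lack overlap between such groups is not given here, so these counts have no background to be read against. MYB36 had another order, with low-dose WT level with dark uvr8-6.

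The low dose against dark was tested within each genotype. In xpf-3 all 7 tested members were lower, against 33.9% of all tested genes, with log2 fold changes between -4.17 ± 0.47 for CASP5 and -2.39 ± 0.26 for MYB36. CASP5 was at 5.55% of its dark level there, CASP2 at 7.16%, CASP1 at 10.3%, PER64 at 10.2% and MYB36 at 19.1%. In uvr8-6 only CASP5 was lower, by log2 -1.80 ± 0.43 (edgeR adjusted p = 0.0142), against 2.88% of all tested genes. The 6 others gave log2 values between -0.65 ± 0.39 for CASP4 and -0.26 ± 0.40 for CASP1, with 95% intervals that reached from -1.46 to 0.56, and CASP5 missed the threshold without dark uvr8-6 library 3 (log2 -1.10, adjusted p = 0.184) or without low-dose uvr8-6 library 2 (log2 -1.60, adjusted p = 0.0935). In WT all 7 were lower, against 12.7% of all tested genes, with -3.25 ± 0.44 for CASP4 and -1.23 ± 0.24 for MYB36. CASP4 kept 10.5% of its dark level in WT, CASP5 10.99%, PER64 14.0%, CASP2 14.5%, CASP1 15.9% and MYB36 42.7%.

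The median log2 fold change of the 7 at the low dose was -3.29 in xpf-3, -0.48 in uvr8-6 and -2.84 in WT, where the medians over all tested genes were -0.006, 0.017 and 0.015.

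After the high dose all 7 were lower than in the dark in each genotype, against 35.5% of all tested genes in xpf-3, 25.4% in uvr8-6 and 31.5% in WT. In xpf-3 the changes lay between -4.09 ± 0.47 for CASP5 and -3.05 ± 0.29 for MYB36. In uvr8-6 they lay between -5.45 ± 0.53 for CASP5, a 43.8-fold difference, and -2.61 ± 0.27 for MYB36. In WT CASP2 was at -4.98 ± 0.47, a 31.6-fold difference, CASP4 at -4.80 ± 0.52, CASP5 at -4.30 ± 0.48, CASP1 at -4.19 ± 0.48, PER64 at -4.04 ± 0.44 and MYB36 at -2.54 ± 0.27. The highest edgeR adjusted p among the 7 was 2.60e-06 in xpf-3, 2.71e-06 in uvr8-6 and 1.78e-07 in WT, each for CASP1. No dark library overlapped with a high-dose library of its genotype for any of the 7, and the share of all tested genes without such overlap is not given here.

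Markers of other cells moved with UV-B as well. The summed level of 4 phloem markers in xpf-3 was between 140 and 162 CPM in the dark, 44.1 and 54.9 CPM after the low dose and 71.7 and 89.6 CPM after the high dose. In uvr8-6 the phloem sum was between 65.9 and 101 CPM in the dark, 41.6 and 59.1 CPM after the low dose and 64.9 and 68.4 CPM after the high dose, and in WT between 112 and 128, 48.1 and 69.1, and 53.3 and 59.1 CPM at those doses. Dark and UV-B libraries were thus apart in this sum in xpf-3 and WT at either dose, and in uvr8-6 at the low dose. SUC2, at a mean of 98.95 CPM in dark WT, made up most of the sum there. At the low dose SUC2, SEOR1 and SEOa were lower in xpf-3 and WT. In uvr8-6 SUC2 alone was lower at that dose, by log2 -0.64 ± 0.15 (edgeR adjusted p = 0.0127). APL passed in none of the genotypes. Of all tested genes 33.9% were lower and 33.4% higher in low-dose xpf-3. In low-dose uvr8-6 these shares were 2.88% and 2.63%, and in low-dose WT 12.7% and 12.9%. Counts of 0 in uvr8-6 and WT in the marker sets that follow are near these shares. A set of 7 xylem markers had 5 lower genes in xpf-3 after the low dose, and 0 passed in uvr8-6 and in WT (edgeR, 0 in uvr8-6 and 2 in WT at an unadjusted p below 0.05; 0 in both by DESeq2). Its sum was between 55.5 and 65.7 CPM in low-dose xpf-3, 44.9 and 83.5 CPM in low-dose uvr8-6 and 91.7 and 175.5 CPM in low-dose WT, and after the high dose between 48.7 and 63.5 CPM in xpf-3, 35.4 and 62.8 CPM in uvr8-6 and 69.0 and 107 CPM in WT. Of 5 epidermis markers 4 were lower and 1 higher in xpf-3 after the low dose, 0 passed in uvr8-6 (edgeR, 3 at an unadjusted p below 0.05; 0 by DESeq2) and 1 was lower in WT. They summed to between 2086 and 2119 CPM in low-dose xpf-3, 2316 and 2860 CPM in low-dose uvr8-6 and 2358 and 3138 CPM in low-dose WT, and after the high dose to between 2159 and 2373 CPM in xpf-3, 2406 and 2579 CPM in uvr8-6 and 1488 and 1881 CPM in WT. The sum of 5 root hair markers was between 28.2 and 77.6 CPM in low-dose xpf-3, 185 and 313 CPM in low-dose uvr8-6 and 18.7 and 146 CPM in low-dose WT, and after the high dose between 47.0 and 55.8 CPM in xpf-3, 33.0 and 58.3 CPM in uvr8-6 and 13.6 and 37.1 CPM in WT. Dark sums of these lists stand beside the comparison of genotypes in the dark. The part of these cells in the lower Casparian strip transcripts after UV-B was not tested.

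**Figure D2:**
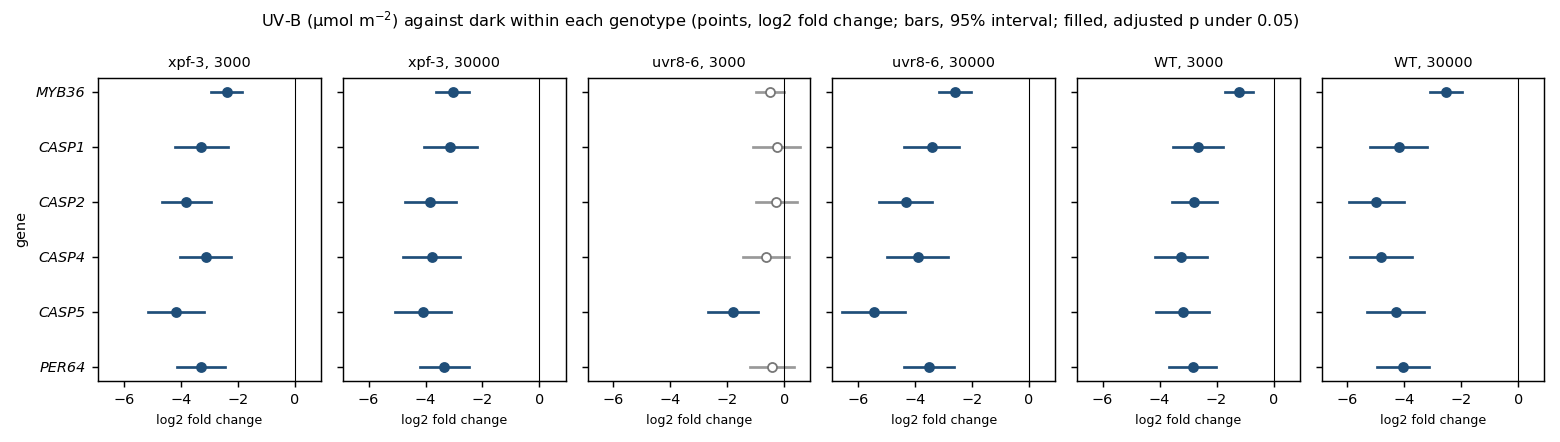
Log2 fold change of UV-B against dark for 6 of the 7 tested genes, with 95% intervals, for xpf-3, uvr8-6 and WT at 3000 and 30000 µmol m-2; filled points passed an edgeR adjusted p of 0.05. All points are filled except those of uvr8-6 at the low dose other than CASP5.

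Going from the low to the high dose, the genotypes gave different sets of calls. In xpf-3 none of the 7 passed (edgeR, 1 at an unadjusted p below 0.05, MYB36; 0 by DESeq2), against 19.5% of all tested genes in either direction, with values such as -0.66 ± 0.31 for MYB36 and 0.15 ± 0.45 for CASP1, whose 95% intervals were -1.30 to -0.02 and -0.78 to 1.09. In uvr8-6 all 7 were lower after the high dose, against 18.5% of all tested genes, with -4.05 ± 0.44 for CASP2 and -2.12 ± 0.28 for MYB36. WT also had all 7 lower, against 23.5% of all tested genes, between -2.20 ± 0.49 for CASP2 and -1.11 ± 0.45 for CASP5. Leaving out low-dose WT library 1, high-dose WT library 1 or high-dose WT library 2 left 4 members called in WT, without CASP4, CASP5 and PER64. CASP4 also lost its call without low-dose WT library 2, and CASP5 without low-dose WT library 3.

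In the dark the mutants were compared with WT. Between xpf-3 and WT 0 of the 7 members passed (edgeR, 0 at an unadjusted p below 0.05; 0 by DESeq2), against 0.167% of all tested genes, with differences between -0.05 ± 0.23 for MYB36 and 0.28 ± 0.41 for CASP5 and 95% intervals that reached from -0.72 to 1.13. Between uvr8-6 and WT 6 of the 7 were lower, against 17.2% of all tested genes. For each of the 7 the libraries of uvr8-6 and WT did not overlap. The share of all tested genes without overlap is not given here. CASP4 differed by log2 -1.53 ± 0.38 (34.6% of the WT level), CASP5 by -1.36 ± 0.42, MYB36 by -1.16 ± 0.23, PER64 by -1.10 ± 0.37 and CASP2 by -1.07 ± 0.35. CASP1 gave -1.02 ± 0.40 and missed the threshold (edgeR adjusted p = 0.0571). Leaving out dark WT library 2, dark uvr8-6 library 1 or dark uvr8-6 library 2 left 3 of the 7 called, CASP4 and MYB36 among them, and leaving out dark WT library 3 left 5, without PER64. Without dark uvr8-6 library 3 all 7 were called.

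Dark uvr8-6 libraries also differed from dark WT in markers of other cells. The summed level of 5 root hair markers was between 242 and 376 CPM in dark uvr8-6, between 56.1 and 311 CPM in dark xpf-3, where library 3 alone exceeded 74.3 CPM, and between 70.4 and 112 CPM in dark WT. A set of 7 xylem markers summed to between 59.3 and 108 CPM in dark uvr8-6, 146 and 189 CPM in dark xpf-3 and 143 and 175 CPM in dark WT. For 4 phloem markers the sums were between 65.9 and 101 CPM in dark uvr8-6, 140 and 162 CPM in dark xpf-3 and 112 and 128 CPM in dark WT. Lower in dark uvr8-6 than in dark WT were the xylem markers XCP2 (log2 -1.145 ± 0.251), XCP1, IRX3, IRX1 and CESA4 (-0.868 ± 0.255). So were the phloem markers SEOR1 (-1.746 ± 0.318), SEOa and SUC2 (-0.524 ± 0.15), whereas VND7, NAC101 and APL did not pass. Of all tested genes 17.2% were lower in that comparison. Markers of the root tip and root cap, 6 genes, never summed to more than 12.4 CPM in a library, and of these NAC070 was at 0 in UV-B-treated xpf-3, and NAC070 and WOX5 were at 0 in high-dose WT. WOX5 was higher in dark uvr8-6 than in dark WT, by log2 2.775 ± 0.564 (edgeR adjusted p = 0.00121). Its levels there were low, at 2.26 ± 0.48 and 0.313 ± 0.054 CPM (SD, n = 3 each). NAC015, SMB and PLT1 did not pass between these groups. Epidermis markers, 5 genes, summed to between 3083 and 3218 CPM in dark uvr8-6, 3697 and 4546 CPM in dark xpf-3 and 3288 and 3325 CPM in dark WT. Whether these differences take part in the lower Casparian strip transcripts of uvr8-6 was not tested.

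The response to UV-B was compared between genotypes as the mutant change minus the WT change. At the low dose 1 of the 7 members differed between the libraries labelled xpf-3 and WT, near the 17.8% of all tested genes with a lower value. That member was MYB36, whose fall was larger in xpf-3 by log2 -1.16 ± 0.35 (95% interval -1.89 to -0.44, edgeR adjusted p = 0.0163), and the call was lost without low-dose WT library 3 (adjusted p = 0.0734). For the 6 others the values lay between -1.02 ± 0.54 for CASP2 and 0.12 ± 0.60 for CASP4. At the high dose 0 of the 7 passed in xpf-3 (edgeR, 0 at an unadjusted p below 0.05; 0 by DESeq2), against 9.34% of all tested genes, with 95% intervals that reached from -1.33 for MYB36 to 2.58 for CASP4.

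For uvr8-6 at the low dose 4 of the 7 responses differed from WT, against 0.258% of all tested genes with a higher value. CASP4 differed by log2 2.60 ± 0.58 (edgeR adjusted p = 0.0358), CASP2 by 2.51 ± 0.51 (adjusted p = 0.0199) and PER64 by 2.42 ± 0.53 (adjusted p = 0.0342). CASP1 gave 2.39 ± 0.58 and missed the threshold (edgeR adjusted p = 0.0568), as did CASP5 at 1.38 ± 0.59 (adjusted p = 0.516) and MYB36 at 0.74 ± 0.34 (adjusted p = 0.561). Same-numbered libraries deviated together in both genotypes at this dose, at correlations of at least 0.133 in WT and 0.177 in uvr8-6. Differently numbered libraries reached 0.285 in WT and 0.196 in uvr8-6, so a pairing by number is not established. With number as a block within each genotype 2 of the 7 remained past the threshold. CASP4 was then at an edgeR adjusted p of 0.0595 and PER64 at 0.0512. Leaving out any of 8 of the 12 libraries left 0 or 1 member called, while the differences of CASP2, CASP4 and PER64 stayed between 2.22 and 3.06. At the high dose 0 of the 7 passed for uvr8-6 (edgeR, 0 at an unadjusted p below 0.05; 0 by DESeq2), against 8.21% of all tested genes, with 95% intervals that reached from -2.51 to 2.57.

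**Figure D3:**
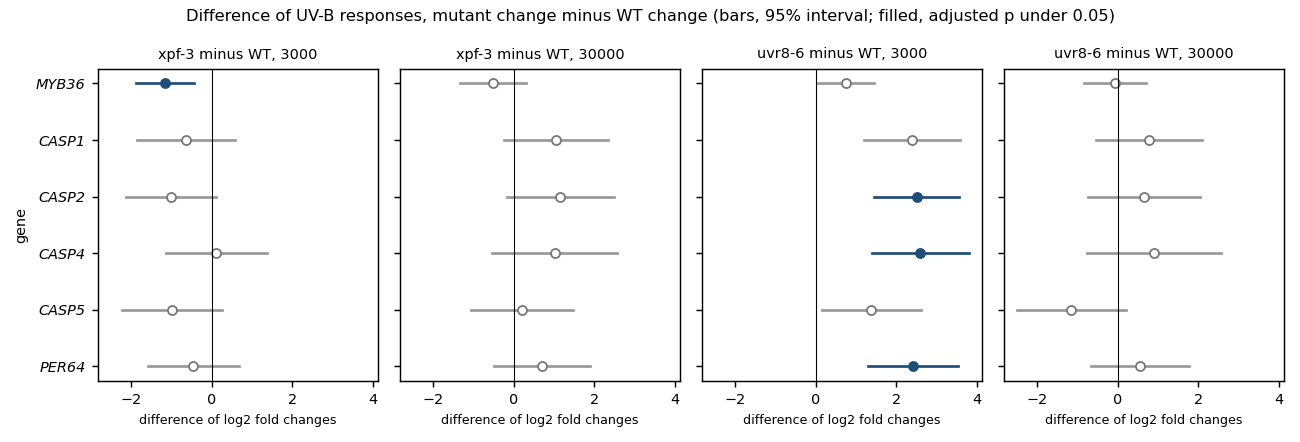
Difference of responses, the mutant log2 change minus the WT log2 change, for 6 of the 7 tested genes with 95% intervals, for xpf-3 and uvr8-6 at 3000 and 30000 µmol m-2; filled points passed an edgeR adjusted p of 0.05. MYB36 passed for xpf-3 at the low dose, and CASP2, CASP4 and PER64 passed for uvr8-6 at the low dose.

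Levels after the low dose were set side by side, without a test, because uvr8-6 began lower in the dark. Low-dose CASP1 was at 56.8 to 97.2 CPM in uvr8-6 and 24.3 to 39.5 CPM in WT. PER64 was at 42.7 to 73.9 CPM in low-dose uvr8-6 and 21.1 to 31.3 CPM in low-dose WT. CASP5 overlapped, at 39.7 to 73.3 CPM in low-dose uvr8-6 and 44.5 to 64.7 CPM in low-dose WT. MYB36 was at 6.61 to 8.04 CPM in low-dose xpf-3, below the 14.7 to 19.3 CPM of low-dose WT.

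Genes that mark the endodermis or signal for its barrier moved less evenly than the strip genes. At the low dose 8 of 12 tested genes of that list were lower and 1 higher in xpf-3, 0 passed in uvr8-6 (edgeR, 2 at an unadjusted p below 0.05; 0 by DESeq2), and 6 were lower and 0 higher in WT, with medians of -0.81, -0.09 and -0.27. Among all tested genes 33.9% were lower and 33.4% higher in xpf-3 at that dose, 2.88% and 2.63% in uvr8-6 and 12.7% and 12.9% in WT, so the count of 0 in uvr8-6 is near the background. SCR, which specifies the endodermis, was at 58.5, 61.3 and 59.2 CPM in low-dose xpf-3, 54.2, 56.5 and 51.3 CPM in low-dose uvr8-6 and 64.2, 63.0 and 66.9 CPM in low-dose WT. Its dark levels were 68.1, 70.7 and 71.7 CPM in xpf-3, 55.1, 57.8 and 57.3 CPM in uvr8-6 and 68.6, 62.4 and 61.8 CPM in WT, so that its dark and low-dose libraries overlapped in uvr8-6 and WT. GSO1, the receptor kinase that senses gaps in the strip, was lower in WT at the low dose, at log2 -1.35 ± 0.17, as was CIF2, which encodes a peptide ligand of that receptor, at -1.29 ± 0.23. PBL15, the kinase also called SGN1 that acts below the receptor, was at -1.60 ± 0.31 there, and GSO2 at -0.83 ± 0.19. At the high dose in WT PBL15 was at -5.22 ± 0.43, CIF2 at -4.41 ± 0.32 and GSO1 at -2.53 ± 0.19, whereas the NADPH oxidase gene RBOHD was higher, at 2.27 ± 0.16. SHR, the mobile factor that switches on SCR, was at 27.5, 27.8 and 18.0 CPM in high-dose WT and 22.0, 31.2 and 24.9 CPM in dark WT, with overlap.

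Other peroxidases, laccases, dirigent proteins and uclacyanins, a list of candidates for lignification of the strip, were closer to the members in their counts. At the low dose 13 of 15 tested were lower in xpf-3, 1 was lower and 2 were higher in uvr8-6, and 12 were lower in WT. The medians were -3.10 in xpf-3, -0.31 in uvr8-6 and -2.34 in WT. Of all tested genes 33.9% were lower in xpf-3 and 12.7% in WT, and in uvr8-6 2.88% were lower and 2.63% higher. LAC1 was lower in all 3 genotypes, with log2 values of -5.60 ± 0.32 in xpf-3, -1.38 ± 0.24 in uvr8-6 and -2.79 ± 0.25 in WT. In WT UCC1 changed by -2.35 ± 0.32, DIR16 by -2.86 ± 0.44 and PER9 by -3.35 ± 0.50. The uvr8-6 response differed from that of WT at the low dose for 4 of the 15, against 0.258% of all tested genes with a higher value. These were DIR16 at 2.75 ± 0.58, LAC3 at 2.49 ± 0.55, DIR18 at 2.41 ± 0.53 and PER9 at 2.87 ± 0.65, all with the higher value in uvr8-6. At the high dose 13 of 15 were lower in xpf-3, 12 in uvr8-6 and 13 in WT, against 35.5%, 25.4% and 31.5% of all tested genes.

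Suberin, the polyester laid down by endodermal cells after the strip, has genes that moved in both directions at the low dose. In uvr8-6 8 of 15 tested suberin genes were higher and 1 was lower at the low dose, in xpf-3 3 were higher and 5 lower, and in WT 5 were higher and 4 lower. The share of all tested genes that was higher at that dose was 2.63% in uvr8-6, 33.4% in xpf-3 and 12.9% in WT, and the share that was lower was 2.88% in uvr8-6, 33.9% in xpf-3 and 12.7% in WT, so that the xpf-3 count of lower genes is near the background. The acyltransferase gene GPAT5 was at 3.2, 3.1 and 3.2 CPM in low-dose uvr8-6, against 0.1, 0.0 and 0.5 CPM in dark uvr8-6. FAR5, a fatty acyl reductase gene, was at 2.3, 2.6 and 2.4 CPM in low-dose uvr8-6 and 0.4, 0.1 and 0.3 CPM in dark uvr8-6, and CYP86B1, a fatty acid hydroxylase gene, at 4.8, 3.8 and 3.5 CPM in low-dose uvr8-6 and 0.2, 0.1 and 0.8 CPM in dark uvr8-6. All 3 had non-overlapping libraries and passed (edgeR adjusted p = 0.000599, 0.000398 and 0.000915). The low-count filter asks for a minimum level in only 3 libraries, so genes this low elsewhere can be tested through low-dose uvr8-6 alone. Their adjusted p and the count of higher suberin genes in uvr8-6 are therefore not independent of the filter. In WT the same genes reached 0.8, 0.8 and 1.4 CPM (GPAT5), 0.7, 0.9 and 1.0 CPM (FAR5) and 1.2, 0.7 and 1.3 CPM (CYP86B1) after the low dose. The summed level of all 18 listed suberin genes did not rise with the low dose. It was between 581.9 and 780.5 CPM in dark uvr8-6 and 571.9 and 655.9 CPM in low-dose uvr8-6. In WT the sum was between 747.8 and 1105 CPM in the dark and 517.0 and 734.8 CPM after the low dose, and in xpf-3 between 1031 and 1095 and between 284.0 and 332.5 CPM. The difference between the uvr8-6 and WT responses passed for 0 of the 15 at the low dose (edgeR, 3 at an unadjusted p below 0.05; 1 by DESeq2, which gave no adjusted p for 7). After the high dose 1 of the 15 was higher and 8 were lower in uvr8-6, and 0 were higher with 6 lower in xpf-3 and 5 lower in WT. Among all tested genes 32.2% were higher and 25.4% lower in high-dose uvr8-6, 37.8% and 35.5% in high-dose xpf-3 and 33.0% and 31.5% in high-dose WT, which puts the counts of lower suberin genes in xpf-3 and WT near the background. RWP1, which encodes the feruloyl transferase of suberin, was at 2.8, 3.2 and 2.0 CPM in high-dose uvr8-6 and 20.04, 21.3 and 35.8 CPM in dark uvr8-6.

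Enzymes that make lignin monomers, common to all lignified cells, changed by less than the members. In WT 4 of 13 were lower at the low dose, and 3 were higher and 6 lower at the high dose, with medians of -0.47 and -0.33, where 12.7% of all tested genes were lower at the low dose, and 33.0% were higher and 31.5% lower at the high dose. FAH1, the ferulate hydroxylase gene, was higher in high-dose WT by 1.84 ± 0.31 and lower in low-dose uvr8-6, at -1.31 ± 0.24, and HCT was lower in high-dose WT, at -1.04 ± 0.15. In the CASP-like family, which shares the membrane fold of the CASP proteins but is not of the strip, 30 of 34 genes were tested. Of these 6 were higher and 12 lower in xpf-3 at the low dose, 3 higher and 1 lower in uvr8-6, and 2 higher and 6 lower in WT, with medians of -0.33, -0.02 and -0.04. Set against the low-dose shares of all tested genes given above, the counts of lower genes in xpf-3 and in uvr8-6 are near the background. CASPL4B1 was lower at the low dose, with log2 values of -2.64 ± 0.26 in xpf-3, -0.80 ± 0.22 in uvr8-6 and -1.38 ± 0.24 in WT, whereas CASPL1C1 was at 1.4, 1.4 and 0.7 CPM in low-dose uvr8-6, against 0.1, 0.0 and 0.0 CPM in dark uvr8-6.

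**Figure D4:**
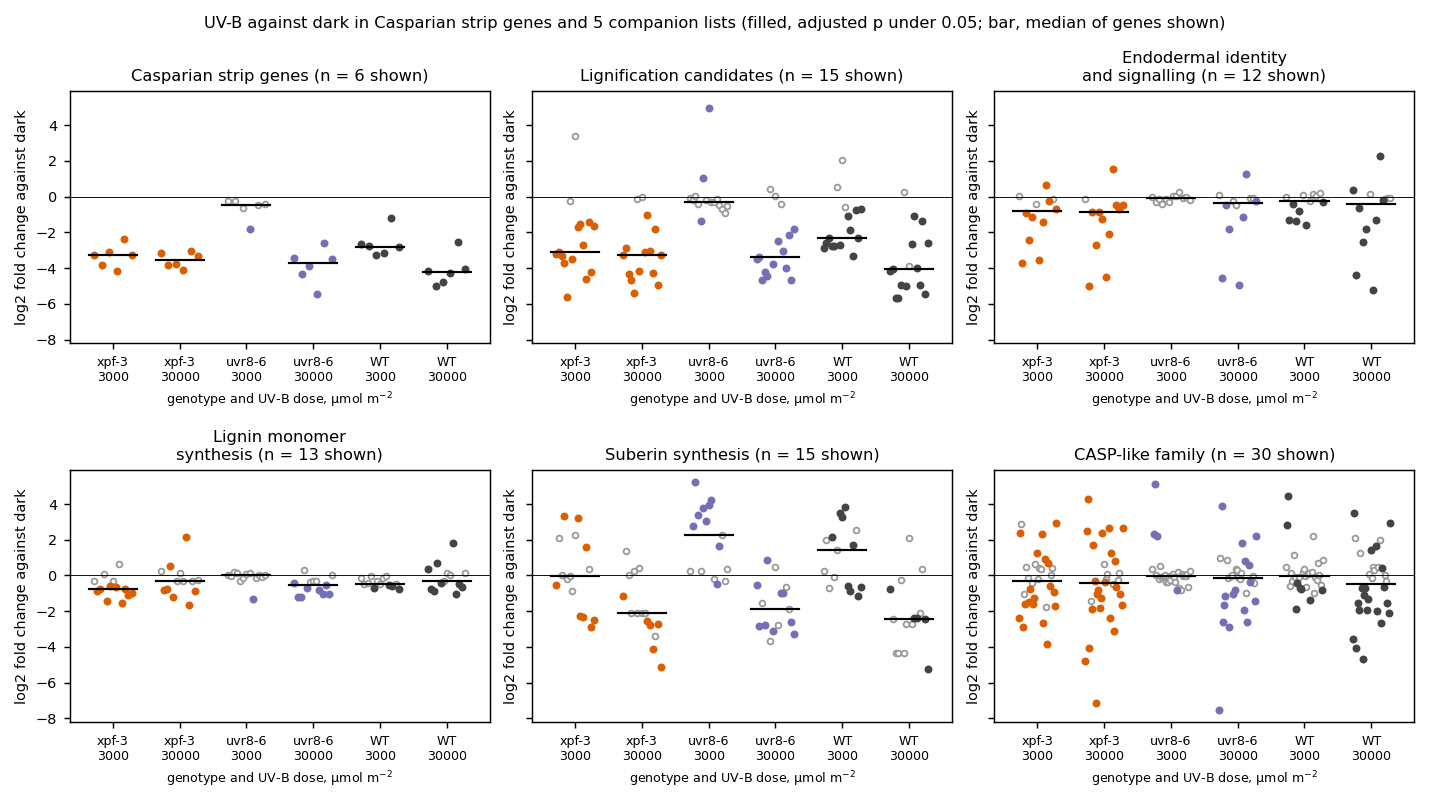
Log2 fold change of UV-B against dark for 6 of the 7 tested Casparian strip genes and for 5 companion lists, by genotype (xpf-3, uvr8-6, WT) and dose; filled points passed an edgeR adjusted p of 0.05 and bars are medians of the genes shown. Fitted values of genes near 0 counts in a group depend on the prior count. Suberin genes that pass the low-count filter through low-dose uvr8-6 alone can raise the median there. The medians of the lignification candidates lie near those of the strip genes, and the suberin median is above 0 in low-dose uvr8-6 and low-dose WT, at 2.27 and 1.45. The summed CPM of the suberin genes did not rise with the low dose in uvr8-6 or WT.

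Genes with a pattern like that of the members were described by the Pearson correlation of their log2 CPM over the 9 group means with the mean standardised profile of the 7 tested members, which share libraries and depth with them. The 10 highest were AT1G30760 (r = 0.996), AT3G22620 (0.995), DIR18 (0.994), LAC3 (0.994), NPF5.12 (0.992), AT1G71740 (0.991), AT5G21950 (0.990), AT5G42250 (0.989), AT4G12510 (0.988) and DIR9 (0.988). Over the 27 single libraries 7 of these were also among the 10 highest, while AT1G30760 ranked 341, AT5G21950 179 and AT4G12510 16. AT3G22620, the most abundant of them, was at 273 ± 18.5 CPM in dark xpf-3, 119 ± 60.8 CPM in dark uvr8-6 and 240 ± 41.2 CPM in dark WT (SD, n = 3 each). Against the mean of the other members over the 9 group means PER64 had r = 0.993, CASP1 and CASP4 0.987, CASP2 0.985, CASP5 0.969 and MYB36 0.944.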

How the data were processed

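Total RNA of excised hypocotyls went into TruSeq stranded libraries, per the labels' protocols. The authors deposited raw counts per gene, and FastQC, Trimmomatic, HISAT2 and DESeq2 are named in the submitters' processing notes. No source used here gives their versions, the genome build, the annotation or the strand setting of the counting. The authors also deposited a signal table, the same counts divided by 1 size factor per library (largest difference 7.6e-10 after multiplying back), which was not tested.

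Of 32832 loci, 26893 had a count and 19794 passed edgeR's low-count filter, with 7 of the 8 members. All 27 libraries entered 1 quasi-likelihood fit (edgeR 4.0.16, R 4.3.3, limma 3.58.1, TMM, robust, 18 residual degrees of freedom) with the 9 groups as terms and 15 comparisons, called at a Benjamini-Hochberg adjusted p below 0.05. The standard error is the log2 fold change over the square root of F, and CPM use a prior count of 2 on the log2 scale only. DESeq2 (1.42.0), its size factors, no filter, the compared groups alone, replicate blocks and leaving out each library were alternatives. The fit was tested on simulated data. Names, exon lengths, exon overlaps and promoter windows came from RefSeq TAIR10.1, and no genome coordinates are printed. Every pair of replicates differed by more than sampling noise (lowest chi-square per degree of freedom 3.57).

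Named were the members, 1 of which is counted with the group and otherwise not reported here, in each other list up to 4 passing genes with the smallest p, and the 10 most similar genes. SCR, SHR, RWP1, CASPL1C1 and HCT were picked for description after their values were seen. The members and lists were chosen with earlier results of these data known. Same-numbered libraries deviated together in WT low dose against dark (correlations 0.384, 0.133 and 0.227) and in the 3 uvr8-6 comparisons (lowest 0.156), and not in all pairs elsewhere. Differently numbered libraries reached 0.285 in WT low dose, 0.196 in uvr8-6 low dose and 0.173 in uvr8-6 high dose, each against dark. These values exceed the lowest same-number correlation of their comparison, so a pairing by number is not established there. Any pairing comes from these data, since the labels do not say what a number marks.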

Additional observations from a re-analysis of the deposited data

Results flagged for a closer look

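Responses that differed between genotypes by the test of the difference itself (edgeR) are listed here. MYB36 responded to the low dose with a larger fall in the libraries labelled xpf-3 than in WT, by -1.16 on the log2 scale, a call lost without low-dose WT library 3 (edgeR adjusted p = 0.0734). This was 1 of the 7 members, a count near the 17.8% of all tested genes with a lower value. For uvr8-6 against WT at the low dose the difference was 2.51 for CASP2, 2.60 for CASP4 and 2.42 for PER64. With replicate number as a block within each genotype CASP4 (edgeR adjusted p = 0.0595) and PER64 (0.0512) missed the threshold, and leaving out any of 8 of the 12 libraries left 0 or 1 of the 7 members called. In uvr8-6 the genotype, the run and a lower dark level go together and cannot be told apart. Groups of 3 libraries are too small for the check on single outlying libraries.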

How the results depend on the processing

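Of 1414 values of single members recomputed under the alternatives, 0 turned round a called direction, 1333 kept their side of the threshold, 69 lost a call and 12 gained one. The number of members called moved with 1 library left out between 4 and 7 (high against low dose in WT), 0 and 1 (low dose in uvr8-6), 3 and 7 (uvr8-6 against WT in the dark), 0 and 1 (xpf-3 minus WT response, low dose) and 0 and 6 (uvr8-6 minus WT response, low dose). With the compared groups alone it was 1 in place of 0 for high against low dose in xpf-3 (MYB36), 0 in place of 1 for the low dose in uvr8-6 and 2 in place of 1 for the xpf-3 response at the low dose. Without the low-count filter, with more genes tested, 1 in place of 4 uvr8-6 responses differed at the low dose. The replicate block within each genotype gave 2 of those 4, and in the other comparisons the block moved no count by over 1.5 times, with 6 in place of 7 for high against low dose in WT and 7 in place of 6 for uvr8-6 against WT in the dark. Over 27 libraries 7 of the 10 most similar genes stayed in the list.

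Counts over all tested genes moved by over 1.5 times as well. With the compared groups alone they were 3023 in place of 5064 (WT low dose), 661 in place of 1090 (uvr8-6 low dose), 1 in place of 33 (xpf-3 against WT, dark), 2616 in place of 6225 (uvr8-6 against WT, dark), 732 in place of 1849 (xpf-3 response, high dose), 53 in place of 156 (uvr8-6 response, low dose) and 648 in place of 1625 (uvr8-6 response, high dose). DESeq2 gave 448 in place of 33 (xpf-3 against WT, dark) and 266 in place of 156 (uvr8-6 response, low dose). The replicate block gave 67 in place of 33 (xpf-3 against WT, dark), and the block within each genotype gave 1742 in place of 1090 (uvr8-6 low dose). Leaving out 1 library moved them between 410 and 1341 (uvr8-6 low dose), 3668 and 7828 (uvr8-6 against WT, dark), 3357 and 6273 (xpf-3 response, low dose), 896 and 2376 (uvr8-6 response, high dose), 14 and 63 (xpf-3 against WT, dark), 177 and 2315 (xpf-3 response, high dose) and 57 and 318 (uvr8-6 response, low dose). For the low dose in WT the count stayed within 1.5 times with 1 library left out, between 3500 and 6712. High against low dose in xpf-3 had 2448 in place of 3855 without low-dose xpf-3 library 2, and the xpf-3 response at the low dose is given against 5854 with all libraries. The cause was not tested. ESB1 did not pass the low-count filter.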
